A study of Mus musculus with 25 samples.

Results

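Inguinal white adipose tissue (iWAT), the subcutaneous fat of the groin, was compared between *Acod1* knockout (*Acod1*-/-) mice fed a high fat diet (HFD) and ND-fed wild type mice (ND, normal diet). The comparison rests on 6 of the 25 RNA-seq libraries of the series, 3 labelled iWAT-KO-HFD and 3 labelled iWAT-WT-ND, with 1 library per mouse. It shows how the fat of HFD-fed knockouts differed from that of ND-fed wild type mice. Both groups were males on a C57BL/6N background, littermates of heterozygous breeders and caged singly from 5 weeks of age. The knockout is a whole-body deletion (C57BL/6N-Acod1em1(IMPC)J/J), so no cell type was targeted. The HFD, with 60% of its calories from fat, began at that age. Labels give 16 weeks of diet for each ND-fed mouse and 16, 17 and 18 weeks for *Acod1*-/- libraries 1, 2 and 3. RNA-seq of knockout mice fed ND was not analysed here, so diet and genotype cannot be told apart in this comparison. The 5 iWAT libraries of HFD-fed wild type mice entered the same fit, and their values against the same ND-fed mice stand beside the knockout values where they help to read them.

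*Acod1* encodes the enzyme that makes itaconate from cis-aconitate, and it is best known from activated macrophages. White adipocytes store triglyceride, take up fatty acids that lipoprotein lipase frees from circulating lipoproteins, and release hormones such as leptin. Inguinal fat can also hold beige adipocytes, which burn fuel through uncoupling protein 1, and a lymph node lies within the pad. In obesity this tissue is known for larger adipocytes, more matrix and macrophages that take up lipid.

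Reads on genes numbered 32.3 to 46.2 M in each of the 6 libraries. CPM here are a gene's reads relative to all reads on genes of its library, after TMM scaling, and the genes tested averaged at least 1 CPM over these 6. All 11 iWAT libraries entered 1 edgeR quasi-likelihood fit of 3 groups, p was adjusted over all tested genes by the Benjamini-Hochberg method, and an adjusted p under 0.1 was called. Log2 fold changes are *Acod1*-/- on HFD minus wild type on ND, and ± is their standard error, with n = 3 in each group throughout. Library numbers in the file headers belong to 2 series of numbers. All 3 ND-fed libraries and *Acod1*-/- library 3 share one series, while *Acod1*-/- libraries 1 and 2 are in the other. *Acod1* itself (ENSMUSG00000022126, GRCm38 chromosome 14, 103046977 to 103056573) had 7, 0 and 5 counts in the ND-fed libraries and 0, 2 and 0 in the *Acod1*-/- libraries. At this depth no difference could be seen (p = 0.4 in a two-sided exact permutation test, the smallest possible p being 0.1), so these counts do not check the genotype.

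Transcripts of other tissues moved with the groups, and they are given first because later results share their libraries. The 10 adipocyte markers summed to 29374, 30999.5 and 36283 CPM in the ND-fed and 51075, 37219 and 38862 CPM in the *Acod1*-/- libraries. Lymph node genes (4 tested of 5) summed to 186, 308 and 172 CPM in the ND-fed libraries but 4.39, 1.16 and 0.890 CPM in the *Acod1*-/- libraries. The 10 B cell markers summed to 884, 1290.3 and 993 CPM on ND and 7.17, 8.39 and 2.62 CPM in the knockouts, and the 12 T cell markers to 457, 720.0 and 486 CPM and 76.9, 63.2 and 58.5 CPM. *Glycam1*, an adhesion ligand of the high endothelial venules of lymph nodes, read 14.0, 24.99 and 24.9 CPM on ND and had no read in any *Acod1*-/- library, at least 257-fold lower. The same lists were also low in HFD-fed wild type mice, at 1.42 to 13.9 CPM for lymph node and 6.46 to 114 CPM for B cells. The ND-fed pads thus carried lymphoid RNA that the HFD-fed pads of either genotype mostly lacked. Fewer cells of a type and less RNA per cell cannot be told apart in bulk tissue.

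Liver transcripts moved the other way. A list of 17 liver genes, added after values were seen, summed to 17.8, 29.5 and 41.7 CPM in the ND-fed libraries and 927, 348 and 1447 CPM in the *Acod1*-/- libraries, with 190.4 to 1540.5 CPM in HFD-fed wild type mice. All 17 were called higher in both HFD-fed groups, beside 19.2% (knockout) and 24.9% (wild type) of all genes tested. Of the 17, 4 had no read in any ND-fed library. *Ahsg*, which encodes the liver-secreted fetuin-A, had no read in any ND-fed library and 56.2, 17.4 and 74.6 CPM in the knockouts, at least 758-fold higher. *Apob*, the backbone protein of liver lipoproteins, likewise went from no read to 27.9, 11.9 and 58.7 CPM, at least 504-fold higher. Between the knockout and the wild type on HFD, where 0.0133% of all genes tested were called, none of the 17 was called by edgeR, and none had an unadjusted p under 0.05. Single libraries also stood apart. The 13 skeletal muscle markers summed to 10492, 12.4 and 407 CPM in the ND-fed and 645, 406 and 131 CPM in the *Acod1*-/- libraries, so ND library 1 held far more muscle RNA than any other. Epithelial markers summed to 10.8, 599.9 and 7.47 CPM in the *Acod1*-/- libraries and 8.72 to 64.3 CPM on ND, and in *Acod1*-/- library 2 the basal keratin *Krt14* alone read 433 CPM. Their part in the results below was not tested, except where a count without the library is given.

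**Figure D1:**
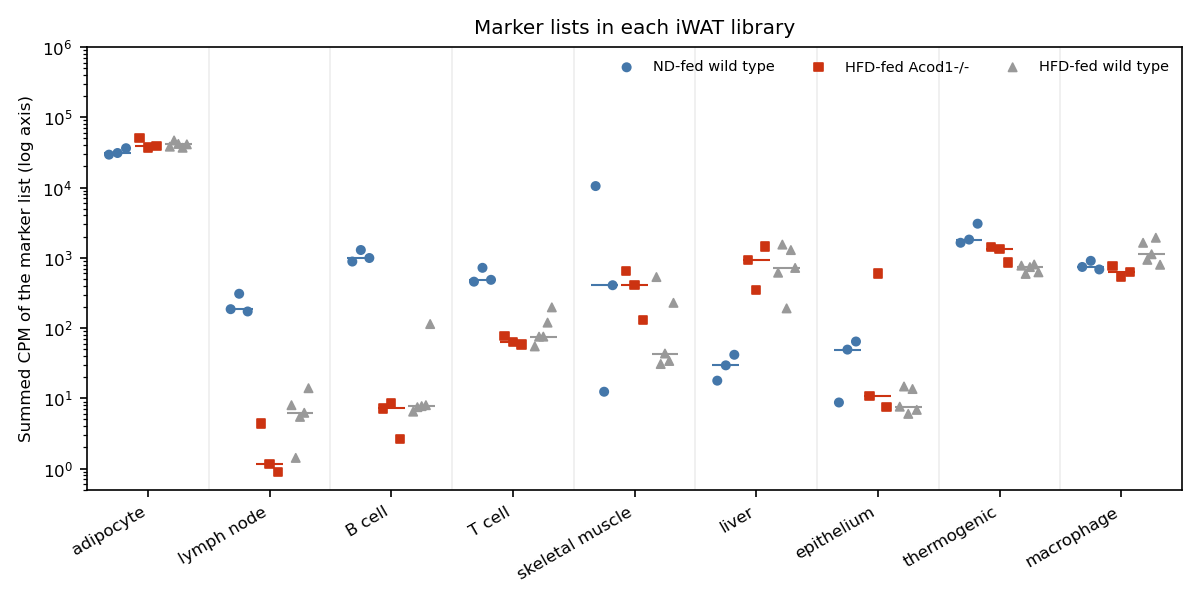
Summed CPM of 9 marker lists (log axis) in each iWAT library, with circles for ND-fed wild type, squares for HFD-fed *Acod1*-/- and triangles for HFD-fed wild type mice, and a line at each group's median. Lymph node, B cell and T cell sums of the 3 ND-fed libraries lie above every *Acod1*-/- library, liver sums lie below, and adipocyte sums lie between 29374 and 51075 CPM in these 6 libraries.

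Of 15045 genes tested, 2893 (19.2%) rose and 2418 (16.1%) fell in *Acod1*-/- iWAT on HFD relative to wild type iWAT on ND. The lower genes moved further, with 820 at least 4-fold lower against 327 at least 4-fold higher. No *Acod1*-/- library overlapped an ND-fed one in 2367 of the higher and 2244 of the lower genes, where 37.2% of all tested genes had groups that did not overlap. The median log2 fold change over all genes tested was 0.05. The 19.2% and 16.1% are the baseline for each count of list members called in this comparison. HFD-fed wild type mice, set against the same ND-fed mice in the same fit, had 3750 higher (24.9%) and 3779 lower (25.1%) genes. Because both comparisons share the ND-fed libraries, these counts are not independent. Of the genes called for the knockout, 1610 higher and 1506 lower ones were called in all 11 fits that left out 1 library, and without ND library 2 the counts were 1843 higher and 1684 lower. Within the number series of the ND-fed mice, 1 *Acod1*-/- library is left, which is assumed to vary like the others. There 2855 of the 2893 higher and 2418 of the 2418 lower genes had the same sign. The libraries of that series also took part in choosing these genes, so agreement in sign was partly fixed in advance.

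**Figure D2:**
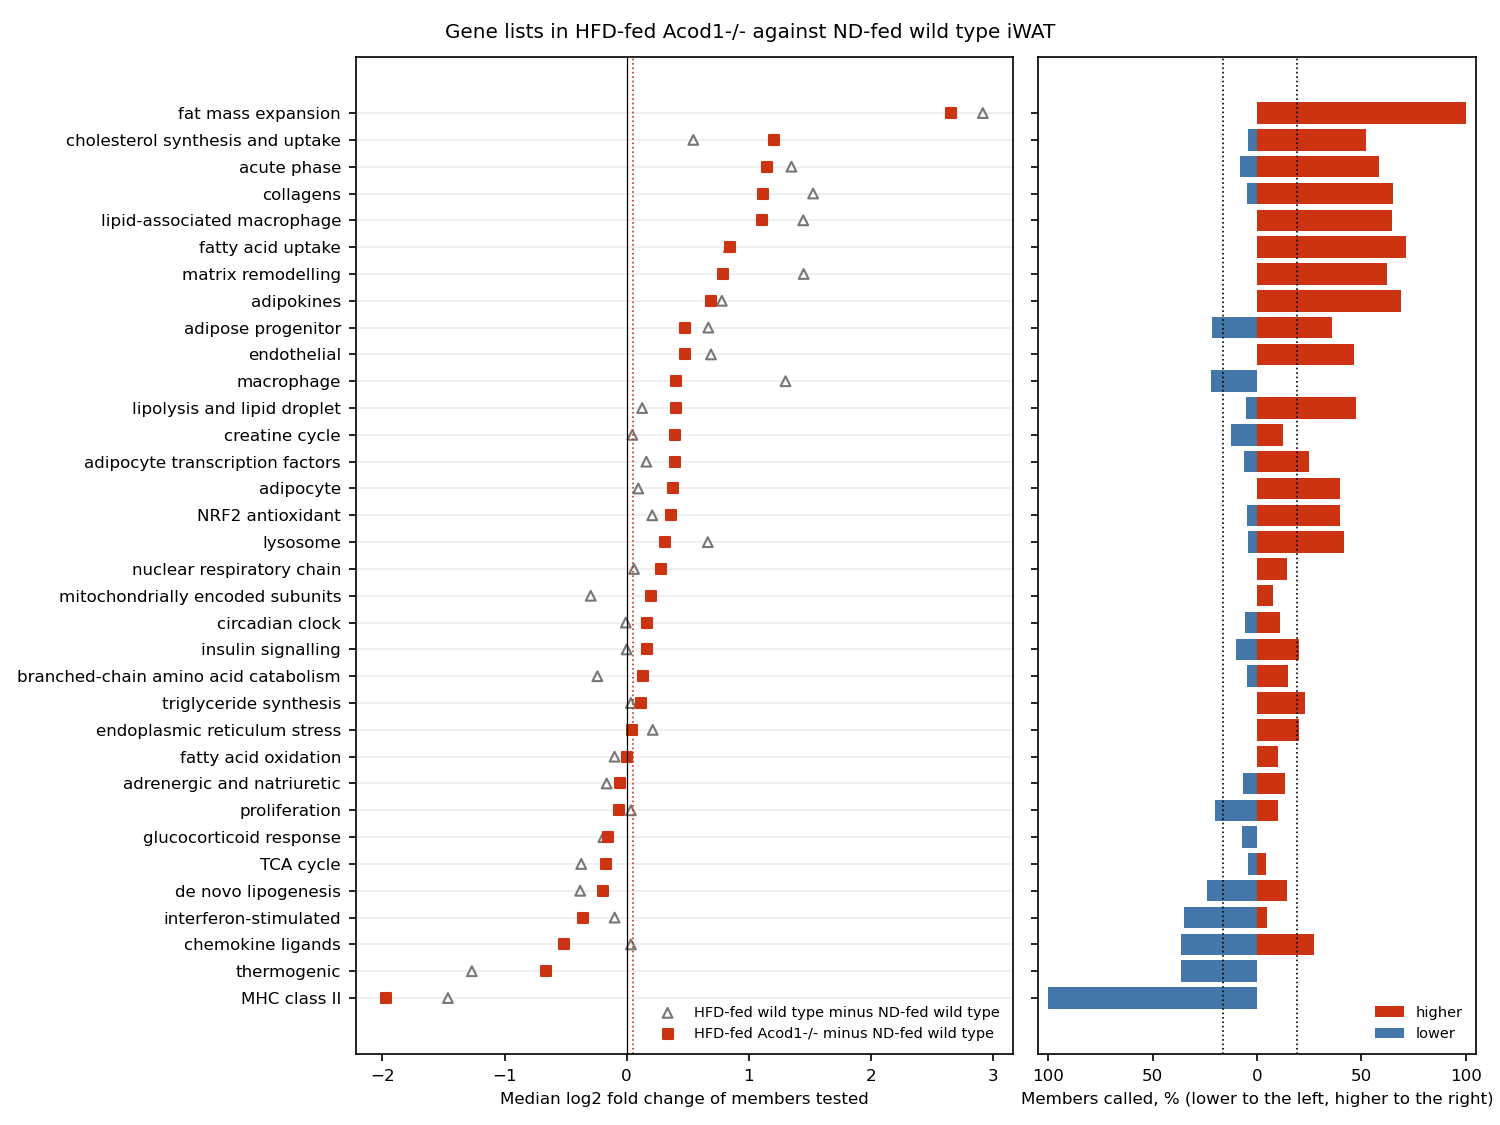
Left, median log2 fold change of the tested members of each gene list but the lymphocyte and smaller marker lists, with squares for HFD-fed *Acod1*-/- and triangles for HFD-fed wild type, both minus the same ND-fed wild type mice, and a dotted line at the median of all genes tested. Right, percent of members called lower (bars to the left) and higher (bars to the right) in the *Acod1*-/- comparison, with dotted lines at the 16.1% and 19.2% of all tested genes. Fat mass expansion and MHC class II genes stand at the ends, with every member called.

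Genes known to follow the growth of fat mass rose. All 5 of the list, *Mest*, *Npr3*, *Bmp3*, *Sfrp5* and *Nnat*, were called higher, with a median log2 fold change of 2.66 against 0.05 over all genes and 2.92 in HFD-fed wild type mice. *Mest*, an imprinted gene whose level tracks adipocyte enlargement, read 49.2, 5.99 and 10.02 CPM in the ND-fed and 527, 311 and 1011 CPM in the *Acod1*-/- libraries. Its groups did not overlap, and the knockouts were 28.4-fold higher (log2 fold change 4.83 ± 0.76, adjusted p = 0.00119). *Npr3*, the receptor that clears natriuretic peptides, read 451, 104 and 184 CPM in the ND-fed and 1299, 872 and 2636 CPM in the *Acod1*-/- libraries (log2 fold change 2.70 ± 0.51, adjusted p = 0.00326). *Bmp3*, a secreted ligand of the bone morphogenetic protein family, rose as well (log2 fold change 2.32 ± 0.41, adjusted p = 0.00216), and its groups were apart. *Sfrp5*, a secreted Wnt inhibitor, read 83.6, 10.1 and 22.3 CPM in the ND-fed and 287, 43.3 and 403 CPM in the *Acod1*-/- libraries, so the groups overlapped at *Acod1*-/- library 2 and ND library 1 while the gene was still called (log2 fold change 2.66 ± 0.80, adjusted p = 0.0302). *Nnat*, the imprinted gene of neuronatin, rose less (log2 fold change 1.14 ± 0.38, adjusted p = 0.0463) and was not called when *Acod1*-/- library 1, ND library 2 or ND library 3 was left out (adjusted p = 0.137, 0.160 and 0.116).

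*Lep*, the gene of the satiety hormone leptin, had 618, 236 and 350.0 CPM in the ND-fed and 1503, 681 and 6575 CPM in the *Acod1*-/- libraries. The lowest knockout lay just above the highest ND-fed mouse (log2 fold change 2.86 ± 0.68, adjusted p = 0.0102). *Acod1*-/- library 3 was far above the other knockouts. That library has the longest labelled diet and alone among the knockouts shares the number series of the ND-fed mice. The part of either was not tested. HFD-fed wild type mice had 4289.8, 5869, 4713, 5049 and 4709.6 CPM, a log2 fold change of 3.62 from ND. Of 13 adipokine genes tested, 9 were higher, and 5 without *Acod1*-/- library 3, beside 19.2% of all genes tested in the full fit. *Rarres2*, the precursor of the chemoattractant chemerin, read 363, 274 and 285 CPM in the ND-fed and 682, 468 and 515 CPM in the *Acod1*-/- libraries and was called (log2 fold change 0.85 ± 0.16, adjusted p = 0.00314). *Metrnl*, a secreted factor of muscle and fat, and *Nrg4*, a secreted ligand of brown and white adipocytes, rose by 1.66 and 1.04 on the log2 scale (adjusted p = 0.00519 and 0.0121). *Adipoq*, the gene of adiponectin, moved little (log2 fold change 0.41 ± 0.15, adjusted p = 0.0662) and was called in 3 of 11 fits without 1 library, with an adjusted p of 0.196 without *Acod1*-/- library 1.

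The 150 bases before the start of *Lep* are shown because leptin is the hormone that follows fat mass and its promoter holds a known C/EBP element; the window is chr6:29060071-29060220 on the plus strand (RefSeq, GRCm38.p6). Capitals mark the palindrome TTGCGCAA, which reads alike on both strands and lies 55 bases before the start here. It was searched in the 150 bases before each start and occurred in 37 of 32851 such windows, or 0.113%. A match describes letters only.
Lep: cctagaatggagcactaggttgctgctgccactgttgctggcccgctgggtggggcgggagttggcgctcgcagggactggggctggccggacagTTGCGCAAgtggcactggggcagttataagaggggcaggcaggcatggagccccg

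Most genes for taking up fatty acids rose. Of 14 uptake genes, 10 were higher, with a median log2 fold change of 0.85 (0.84 in HFD-fed wild type mice). *Lpl*, lipoprotein lipase, read 7846, 8556 and 9494 CPM in the ND-fed and 21415, 17177 and 18339.6 CPM in the *Acod1*-/- libraries. All 3 knockouts lay clearly above the ND-fed mice, 2.20-fold on average (log2 fold change 1.14 ± 0.17, adjusted p = 0.000981). *Cavin1*, *Cav1* and *Cav2*, which build the caveolae of the adipocyte surface, rose by 1.02, 1.09 and 1.04 on the log2 scale. *Cavin1*, with the smallest adjusted p of the list, read 1196, 924 and 1103 CPM in the ND-fed and 2067, 1979.8 and 2503 CPM in the *Acod1*-/- libraries (adjusted p = 0.000804). *Fabp5*, a fatty acid carrier of adipocytes and macrophages, rose by 1.56 on the log2 scale (adjusted p = 0.00831). *Cd36*, the fatty acid translocase, rose less (log2 fold change 0.57 ± 0.20, adjusted p = 0.0565) and was not called when *Acod1*-/- library 3, ND library 2 or ND library 3 was left out (adjusted p = 0.224, 0.187 and 0.114).

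The triglyceride synthesis list had 3 of 13 members higher, near the 19.2% of all genes tested. *Dgat2*, which adds the last acyl chain of a triglyceride, read 623, 796 and 843 CPM in the ND-fed and 1836, 1825 and 3127 CPM in the *Acod1*-/- libraries (log2 fold change 1.59 ± 0.26, adjusted p = 0.00146). *Mogat2*, a monoacylglycerol acyltransferase, rose by 2.89 on the log2 scale (adjusted p = 0.00465). *Pck1*, which supplies glycerol for the triglyceride backbone, was not called (log2 fold change -0.59 ± 0.33, adjusted p = 0.214, 95% interval -1.32 to 0.14), while in HFD-fed wild type mice it was called lower (log2 fold change -2.11, adjusted p = 0.000388). The difference between the genotypes on HFD was not called for *Pck1* (adjusted p = 0.126). *Gpam*, the first enzyme of the route, was not called (log2 fold change 0.12, 95% interval -0.84 to 1.07).

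Among 19 lipolysis and lipid droplet genes, 9 were higher and 1 lower, beside 19.2% and 16.1% of all genes tested. The higher count was 3 with ND library 2 left out and 5 with *Acod1*-/- library 3 or ND library 1 left out. *Mgll*, monoacylglycerol lipase, read 1419, 1204 and 1630.5 CPM in the ND-fed and 3655, 5338 and 2879 CPM in the *Acod1*-/- libraries (log2 fold change 1.48 ± 0.23, adjusted p = 0.00103). *Plin3*, which coats small droplets, rose by 0.59 on the log2 scale (adjusted p = 0.0129), and both genes were called in all 11 fits without 1 library. The lower gene was *Cidea*, a droplet protein that marks brown and beige adipocytes (log2 fold change -1.69 ± 0.56, adjusted p = 0.0445), which was not called when *Acod1*-/- library 1, *Acod1*-/- library 3 or ND library 3 was left out (adjusted p = 0.115, 0.113 and 0.221). *Lipe*, hormone-sensitive lipase, had a log2 fold change of 0.40 (adjusted p = 0.0814) and was called in 3 of 11 fits without 1 library, with an adjusted p of 0.235 without *Acod1*-/- library 3. *Pnpla2*, adipose triglyceride lipase, had a 95% interval of -0.31 to 0.38 on the log2 scale.

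Of 21 de novo lipogenesis genes, 3 were higher and 5 lower (the lower count was 3 without *Acod1*-/- library 1, ND library 2 or ND library 3), shares near the 19.2% and 16.1% of all genes tested, with a median log2 fold change of -0.19 (-0.38 in HFD-fed wild type mice). Of those that fell, 4 make palmitate or its precursors or lengthen it and the other is *Tkt*, transketolase (log2 fold change -0.88, adjusted p = 0.0736), which was not called when *Acod1*-/- library 1, *Acod1*-/- library 3, ND library 2 or ND library 3 was left out (adjusted p = 0.143, 0.157, 0.130 and 0.326). Other members of the same steps, such as *Acacb* and *Elovl5*, were not called (log2 fold changes -0.70 and 0.14). *Acly*, which makes cytosolic acetyl-CoA from citrate, read 374, 849 and 1158 CPM in the ND-fed and 139.7, 334 and 226 CPM in the *Acod1*-/- libraries (log2 fold change -1.77 ± 0.41, adjusted p = 0.00914), all knockouts below all ND-fed mice. *Elovl6*, the elongase from palmitate to stearate, read 40.9, 122 and 237 CPM in the ND-fed and 25.2, 39.05 and 25.6 CPM in the *Acod1*-/- libraries (log2 fold change -2.15 ± 0.49, adjusted p = 0.00825). *Acaca*, acetyl-CoA carboxylase, fell by 1.36 on the log2 scale (adjusted p = 0.0150), with groups that overlapped. *Fasn*, fatty acid synthase, read 1979.6, 4545 and 6737 CPM in the ND-fed and 1112, 1938 and 2242 CPM in the *Acod1*-/- libraries and fell (log2 fold change -1.33 ± 0.44, adjusted p = 0.0473), with ND library 1 inside the knockout range, and it was not called when *Acod1*-/- library 1, ND library 2 or ND library 3 was left out (adjusted p = 0.137, 0.108 and 0.171). Of the desaturases, *Fads1* and *Fads2* were not called (log2 fold changes 0.68 and 2.26, adjusted p = 0.328 and 0.183). *Scd1*, which makes oleate, read 20267, 20242 and 24841 CPM in the ND-fed and 38880.5, 34744 and 39818 CPM in the *Acod1*-/- libraries (log2 fold change 0.80 ± 0.18, adjusted p = 0.00736), rose, and *Scd2* rose by 0.93 on the log2 scale (adjusted p = 0.0161). *G6pdx*, a source of NADPH, rose by 0.80 on the log2 scale (adjusted p = 0.0104). The regulator *Srebf1* was not called (log2 fold change 0.17, 95% interval -0.29 to 0.64). Nor was *Pnpla3*, which the paper counts among neutral lipolysis genes (log2 fold change -0.36, 95% interval -1.03 to 0.31).

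Thermogenic genes were lower or not called. Of 22 tested, 8 were lower and 0 higher by edgeR, with 0 higher also at an unadjusted p under 0.05 and by DESeq2. The median log2 fold change was -0.66 against -1.27 in HFD-fed wild type mice, where 15 were lower. *Epsti1*, an interferon-inducible gene used as a beige marker, fell 11.2-fold (log2 fold change -3.49 ± 0.47, adjusted p = 0.000555). *Tmem26*, a surface protein used to mark beige adipocytes, read 3.14, 4.63 and 1.78 CPM in the ND-fed and 0.258, 0.354 and 0.322 CPM in the *Acod1*-/- libraries (log2 fold change -3.35 ± 0.52, adjusted p = 0.00113). *Dio2*, the deiodinase that activates thyroid hormone in brown fat, read 1.12, 7.91 and 32.9 CPM in the ND-fed and 0.619, 0.515 and 0.495 CPM in the *Acod1*-/- libraries, low and even in the knockouts and spread widely on ND (log2 fold change -4.68 ± 1.03, adjusted p = 0.00710). *Pdk4*, which restrains pyruvate oxidation, fell by 1.57 on the log2 scale (adjusted p = 0.0203).

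*Ucp1*, the uncoupling protein, was spread widely on ND. It read 2.37, 113 and 577 CPM in the ND-fed and 0, 4.25 and 9.94 CPM in the *Acod1*-/- libraries, so ND library 3 held most of its reads and ND library 1 lay inside the knockout range (log2 fold change -5.61 ± 1.72, adjusted p = 0.0329), and it was not called when ND library 3 was left out (adjusted p = 0.129). The count of lower genes in the list was 4 with ND library 3 left out and 5 with *Acod1*-/- library 1 or *Acod1*-/- library 3 left out. Without both ND library 1 and *Acod1*-/- library 2 it was 11. *Adrb3*, the beta-3 adrenoceptor, read 520.2, 577 and 494 CPM in the ND-fed and 841, 549 and 187 CPM in the *Acod1*-/- libraries (log2 fold change -0.01, 95% interval -1.20 to 1.17), and in HFD-fed wild type mice it was lower (log2 fold change -1.89, adjusted p = 0.00882). *Ppargc1a*, a coactivator of mitochondrial biogenesis, was not called (log2 fold change -0.15, 95% interval -0.83 to 0.53). The B and T cell sums of the ND-fed libraries moved with *Epsti1* too, and their part was not tested.

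**Figure D3:**
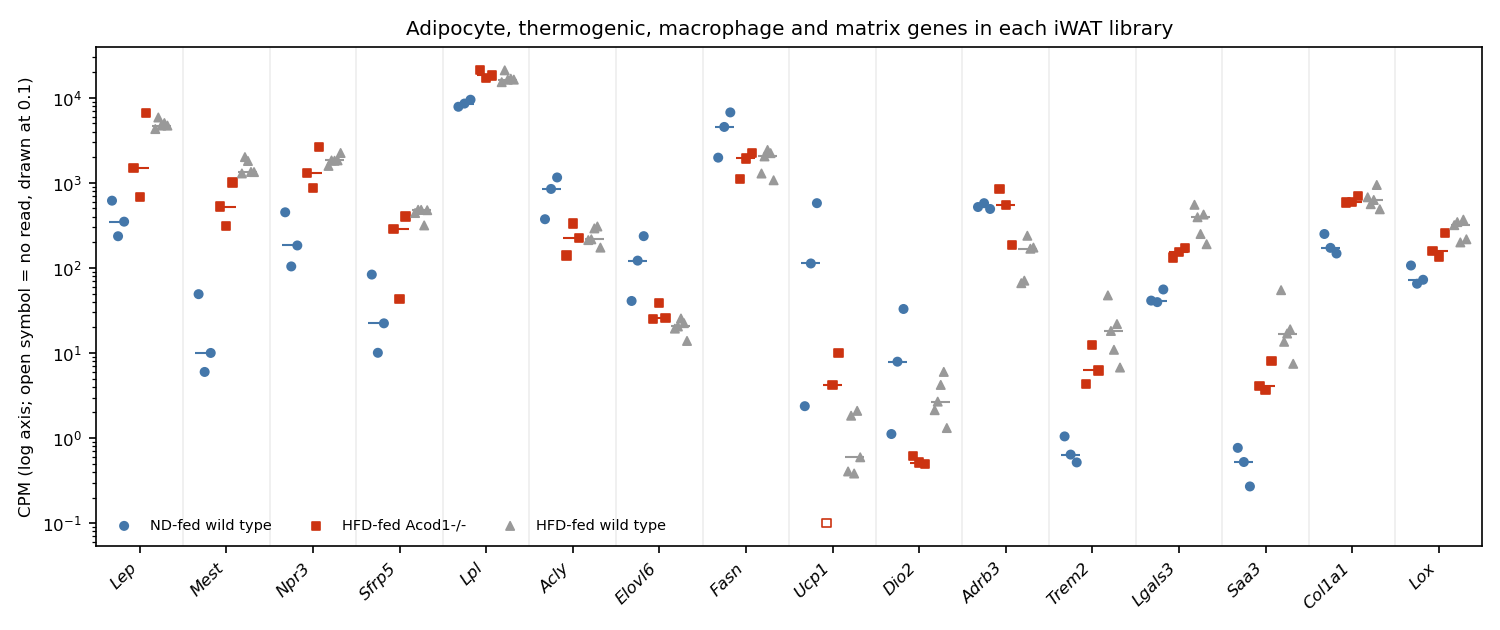
CPM (log axis) of adipocyte, thermogenic, macrophage and matrix genes in each iWAT library, with circles for ND-fed wild type, squares for HFD-fed *Acod1*-/- and triangles for HFD-fed wild type mice, a line at each group's median and an open symbol for a library without a read. The ND-fed and *Acod1*-/- libraries are apart for Lep, Mest, Npr3, Lpl, Acly, Elovl6, Dio2, Trem2, Lgals3, Saa3, Col1a1 and Lox, and overlap for Sfrp5, Fasn, Ucp1 and Adrb3.

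Genes of mitochondrial fuel use were mostly not called, beside 19.2% of all genes tested called higher and 16.1% called lower. In the TCA cycle, 1 of 24 was higher (*Idh2*, isocitrate dehydrogenase, log2 fold change 0.58 ± 0.15, adjusted p = 0.0173) and 1 lower, and in HFD-fed wild type mice 11 of the 24 were lower. *Cs*, citrate synthase, and *Sdha*, the succinate dehydrogenase subunit that itaconate inhibits, had 95% log2 intervals of -0.56 to 0.30 and -0.95 to -0.04. Of 69 nuclear genes of the respiratory chain, 10 were higher, a smaller share than the 19.2% of all genes. *Ndufb4* and *Ndufa11*, of complex I, and *Atp5g3* and *Atp5j*, of ATP synthase, led them with log2 fold changes of 1.005, 0.75, 0.61 and 0.57 (adjusted p = 0.00703, 0.0185, 0.0153 and 0.0150). The count was 5 without *Acod1*-/- library 2 or ND library 2, 6 without ND library 1, 22 without *Acod1*-/- library 3 and 36 without ND library 3. With the number series as a term in the fit it was 1, and the list's median log2 fold change was 0.12 in place of 0.28. *Ndufs1*, the largest subunit of complex I, was not called, with a log2 fold change of -0.36 (95% interval -0.83 to 0.11). Of 13 mitochondrially encoded genes, *mt-Co2* alone was called (log2 fold change 0.87 ± 0.35, adjusted p = 0.0924), with groups that overlapped, and it was called in 2 of 11 fits without 1 library, with an adjusted p of 0.375 without *Acod1*-/- library 1.

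Of 20 genes of mitochondrial and peroxisomal fatty acid oxidation, 2 were higher, beside 19.2% of all genes tested. *Cpt1a*, which carries long-chain acyl groups into mitochondria, read 48.2, 40.9 and 34.2 CPM in the ND-fed and 82.4, 74.0 and 137 CPM in the *Acod1*-/- libraries (log2 fold change 1.25 ± 0.22, adjusted p = 0.00199). *Etfb*, an electron carrier, rose by 1.23 on the log2 scale (adjusted p = 0.0220) with groups that overlapped. Branched-chain amino acid catabolism had 3 higher and 1 lower of 20, beside 19.2% and 16.1% of all genes tested, so the list did not stand apart by its counts. The higher count was 1 without ND library 1 or 2 and 6 without ND library 3. *Acad8*, of valine breakdown, rose by 0.39 on the log2 scale (adjusted p = 0.0163), and *Slc25a44*, the mitochondrial carrier of these amino acids, fell by 0.62 on the log2 scale (adjusted p = 0.0438), a gene not called when *Acod1*-/- library 1 or ND library 3 was left out (adjusted p = 0.123 and 0.137). *Bcat2*, the first enzyme of the route, had a 95% log2 interval of -0.42 to 0.49, and *Bckdhb*, of the next step, one of -0.11 to 0.79. Of 6 tested genes around itaconate (its precursor, its targets and its breakdown), 1 was higher and 2 lower. *Clybl*, which clears a product of itaconate, rose by 0.56 on the log2 scale (adjusted p = 0.0564) and was not called when *Acod1*-/- library 1, *Acod1*-/- library 3, ND library 1 or ND library 2 was left out (adjusted p = 0.149, 0.186, 0.177 and 0.183).

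Among 20 insulin signalling genes, 4 were higher and 2 lower, beside 19.2% and 16.1% of all genes tested, so the list did not stand apart by its counts. *Grb14*, an adaptor that dampens the insulin receptor, read 42.5, 21.4 and 27.0 CPM in the ND-fed and 85.7, 65.4 and 126 CPM in the *Acod1*-/- libraries (log2 fold change 1.61 ± 0.26, adjusted p = 0.00145), and its relative *Grb10* rose by 0.72 on the log2 scale (adjusted p = 0.00585). *Tbc1d1*, a brake on glucose transporter traffic, fell (log2 fold change -0.92 ± 0.13, adjusted p = 0.000780). The receptor *Insr*, its substrate *Irs1* and the transporter *Slc2a4* were not called, with log2 fold changes of -0.04, 0.09 and 0.24 (95% intervals -0.33 to 0.24, -0.37 to 0.55 and -0.11 to 0.58).

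Of 16 adipocyte transcription factors, 4 were higher and 1 lower, beside 19.2% and 16.1% of all genes tested. *Nfib*, a partner factor in adipogenesis, read 164, 171 and 178 CPM in the ND-fed and 597, 416 and 301 CPM in the *Acod1*-/- libraries (log2 fold change 1.36 ± 0.20, adjusted p = 0.000956). *Zfp423*, which holds adipocytes in the white state, rose by 1.16 on the log2 scale (adjusted p = 0.000980). *Pparg* and *Cebpa*, the master factors of the adipocyte, were not called (95% intervals -0.03 to 0.80 and -0.06 to 0.64 on the log2 scale). *Stat5b* fell by 0.51 on the log2 scale (adjusted p = 0.0289). In the adrenergic and natriuretic list of 15, *Npr3* and *Gnas*, the stimulatory G protein, were higher and *Rgs2*, a brake on G protein signalling, lower, from 53.6, 231 and 183 CPM to 19.2, 16.4 and 21.3 CPM (log2 fold change -3.03 ± 0.51, adjusted p = 0.00168). In the creatine cycle, *Gamt*, which makes creatine, was the higher of 2 genes called among 8, at 11.9, 13.1 and 11.1 CPM in the ND-fed and 45.5, 30.3 and 45.7 CPM in the *Acod1*-/- libraries (log2 fold change 1.75 ± 0.18, adjusted p = 0.000126). The other, the muscle mitochondrial creatine kinase *Ckmt2*, was lower (log2 fold change -5.81, adjusted p = 0.0941), beside the high muscle sum of ND library 1. Without that library its log2 fold change was -1.22 (adjusted p = 0.714), and the call was also lost without *Acod1*-/- library 1, 2 or 3 (adjusted p = 0.167, 0.143 and 0.189) and without wild type HFD library 3 or 5 (adjusted p = 0.107 and 0.112).

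Genes of macrophages in general were mostly not called. Of 18 general macrophage markers, 0 were higher and 4 lower by edgeR, with a median log2 fold change of 0.41. At an unadjusted p under 0.05, 2 were higher, and DESeq2 called 3 higher and 4 lower. In HFD-fed wild type mice 12 were higher (median log2 fold change 1.30). Between the genotypes on HFD, edgeR called 0 of the 18, while 15 were lower in the knockout at an unadjusted p under 0.05. The share of all genes lower at that p was not worked out, so this count has no baseline. Their sum was 740.5, 905 and 682 CPM on ND, 756, 529.6 and 624 CPM in the knockouts and 795 to 1928 CPM in HFD-fed wild type mice. *Adgre1*, which encodes F4/80, and *Cd68* had log2 fold changes of 0.83 and 0.86 (adjusted p = 0.146 and 0.113, 95% intervals -0.04 to 1.70 and 0.04 to 1.68). *Cd86*, a costimulatory ligand that B cells and dendritic cells also carry, fell from 18.9, 22.9 and 15.6 CPM to 5.70, 3.12 and 5.22 CPM (log2 fold change -2.03 ± 0.25, adjusted p = 0.000339). *Mpeg1* and *Lyz2*, expressed in macrophages and other myeloid cells, fell, with log2 fold changes of -1.74 and -1.12 (adjusted p = 0.00573 and 0.0203). The lymph node and B cell sums moved with these 3 genes, and their part was not tested.

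Lipid-associated macrophage genes, which lipid-laden macrophages of obese fat express, had 11 of 17 higher, with a median log2 fold change of 1.11 (1.45 in HFD-fed wild type mice), and 5 without ND library 2. *Trem2*, the lipid receptor that defines these cells, read 1.05, 0.640 and 0.518 CPM in the ND-fed and 4.31, 12.4 and 6.23 CPM in the *Acod1*-/- libraries. It was low on ND in every library and 10.4-fold higher in the knockouts (log2 fold change 3.38 ± 0.70, adjusted p = 0.00546). *Lgals3* and *Lgals1*, galectins that stromal cells also make, read 41.3, 39.6 and 55.9 CPM in the ND-fed and 132, 155 and 172 CPM in the *Acod1*-/- libraries for *Lgals3* and rose by 1.49 for *Lgals1* on the log2 scale (adjusted p = 0.00357 and 0.000141). *Gpnmb*, a glycoprotein of lysosome-rich macrophages, was called with overlapping groups (log2 fold change 2.07 ± 0.80, adjusted p = 0.0763) and was not called when *Acod1*-/- library 2, ND library 2 or ND library 3 was left out (adjusted p = 0.286, 0.204 and 0.189). *Itgax*, which encodes CD11c, was not called (log2 fold change -0.13, 95% interval -1.27 to 1.02). Of 24 lysosome genes, 10 were higher and 1 lower, beside 19.2% and 16.1% of all genes tested. The higher count was 4 without ND library 1, 5 without ND library 2 and 6 without *Acod1*-/- library 3. *Atp6v0d1*, of the proton pump, and *Ctsk*, a collagen-degrading protease, rose by 0.64 and 1.49 on the log2 scale (adjusted p = 0.00199 and 0.00788), and *Ctss*, the protease that trims the MHC class II invariant chain, fell by 1.55 on the log2 scale (adjusted p = 0.0147).

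Chemokine ligands went both ways, with 6 of 22 higher and 8 lower, beside 19.2% and 16.1% of all genes tested. The higher count was 3 without *Acod1*-/- library 1 or ND library 2. The lower ones included the ligands that lay out a lymph node. *Ccl21a* and *Ccl19*, which draw T cells and dendritic cells, read 109, 214 and 85.1 CPM and 5.89, 6.38 and 4.77 CPM on ND and 0.103, 0.225 and 0 CPM and 0, 0.0322 and 0 CPM in the knockouts, where single libraries held no or a few reads. *Ccl21a* has near-identical copies in the mouse genome, so its own count is uncertain. *Cxcl13*, which draws B cells, fell 31.5-fold (log2 fold change -4.98 ± 0.86, adjusted p = 0.00195). *Ccl22*, a dendritic cell ligand for regulatory T cells, and *Cxcl16* fell, with log2 fold changes of -5.69 and -2.06 (adjusted p = 0.00192 and 0.000996). The higher ligands included some for eosinophils and neutrophils. *Ccl7*, *Ccl9* and *Cxcl14* were higher too, while *Ccl5* and *Ccl12* were lower. *Ccl7* lost its call in several fits without 1 library, such as those without *Acod1*-/- library 3 or ND library 2 (adjusted p = 0.210 and 0.233). *Ccl24* and *Ccl11*, the eotaxins, rose by 2.64 and 1.70 on the log2 scale (adjusted p = 0.00404 and 0.00495), and *Cxcl1*, which draws neutrophils, rose by 2.21 on the log2 scale (adjusted p = 0.0121). *Ccl2*, the main monocyte ligand of fat, was not called (log2 fold change 1.21, 95% interval -0.32 to 2.74).

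Of 12 acute phase genes, 7 were higher and 1 lower, beside 19.2% and 16.1% of all genes tested. *Saa3*, the serum amyloid gene that adipocytes and macrophages make, read 0.768, 0.523 and 0.270 CPM in the ND-fed and 4.13, 3.70 and 8.04 CPM in the *Acod1*-/- libraries (log2 fold change 3.34 ± 0.72, adjusted p = 0.00635). *Lbp*, which presents lipopolysaccharide, read 50.7, 20.1 and 18.4 CPM in the ND-fed and 151, 91.4 and 333 CPM in the *Acod1*-/- libraries (log2 fold change 2.69 ± 0.47, adjusted p = 0.00219), and *Orm1* rose by 1.25 on the log2 scale (adjusted p = 0.00249). *Hp*, haptoglobin, was not called (log2 fold change 0.62, 95% interval -0.07 to 1.31). Liver makes most of these proteins, and the liver sum given above moved with them. Its part was not tested. Interferon-stimulated genes were lower in 7 of 20 and higher in 1, beside 16.1% and 19.2% of all genes tested. *Irf9* and *Stat2*, of the factor that drives them, fell, with log2 fold changes of -0.95 and -0.78 (adjusted p = 0.00678 and 0.0151), as did the sensor *Zbp1* and the deconjugase *Usp18*, with log2 fold changes of -1.57 and -1.27 (adjusted p = 0.00830 and 0.00893). *Ifit3* rose by 1.10 on the log2 scale (adjusted p = 0.00895). The B and T cell sums moved with the lower interferon-stimulated genes, and their part was not tested.

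All 10 MHC class II genes fell, and all 10 were called in every fit that left out 1 library, with a median log2 fold change of -1.98 and -1.46 in HFD-fed wild type mice. These genes encode the chains that present peptides to helper T cells and the machinery that loads them. Their sum was 2058, 2971 and 2438 CPM on ND and 1083, 458 and 726 CPM in the knockouts. *H2-Aa* and *H2-Eb1*, of the classical chains that macrophages and B cells share, fell, with log2 fold changes of -1.32 and -1.36, and the invariant chain *Cd74* read 732, 1031 and 881 CPM in the ND-fed and 348, 144 and 268 CPM in the *Acod1*-/- libraries (log2 fold change -1.80 ± 0.30, adjusted p = 0.00152). *Ciita*, the master switch of the family, read 50.6, 79.1 and 48.3 CPM in the ND-fed and 7.12, 5.73 and 5.37 CPM in the *Acod1*-/- libraries (log2 fold change -3.29 ± 0.37, adjusted p = 0.000221), and the peptide editor *H2-DMa* read 37.8, 62.3 and 52.0 CPM in the ND-fed and 14.5, 7.49 and 12.2 CPM in the *Acod1*-/- libraries (log2 fold change -2.15 ± 0.26, adjusted p = 0.000339). The falls were far larger for *H2-Oa* and *H2-Ob*, whose product DO is made by B cells, at 19.4, 29.2 and 23.1 CPM in the ND-fed and 0, 0.289 and 0 CPM in the *Acod1*-/- libraries for *H2-Oa* and a log2 fold change of -6.54 for *H2-Ob* (adjusted p = 0.000849). The related chain *H2-DMb2* fell by 6.68 on the log2 scale and *H2-DMb1* by 1.29. The B cell sum moved with the whole list, and its part was not tested.

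Windows of 150 bases before 3 MHC class II starts are shown because the genes fell together and share a promoter box (RefSeq, GRCm38.p6). They are chr17:34287824-34287973 on the minus strand for H2-Aa, chr17:34305717-34305866 on the plus strand for H2-Eb1 and chr17:34153041-34153190 on the plus strand for H2-DMb1. Capitals mark TGATTGG, the core of the Y box, which lies 50, 61 and 63 bases before the starts. Searched on both strands of the 150 bases before each start, these letters were in 1877 of 32851 windows (5.71%). They were in 6 of the 8 windows of the 7 MHC class II genes that have one (75%).
H2-Aa: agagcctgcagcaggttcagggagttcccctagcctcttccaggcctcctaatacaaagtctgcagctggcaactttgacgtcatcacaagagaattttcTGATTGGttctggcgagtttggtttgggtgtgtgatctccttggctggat
H2-Eb1: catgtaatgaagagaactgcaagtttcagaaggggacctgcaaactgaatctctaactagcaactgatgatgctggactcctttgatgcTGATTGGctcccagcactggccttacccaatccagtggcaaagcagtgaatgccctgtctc
H2-DMb1: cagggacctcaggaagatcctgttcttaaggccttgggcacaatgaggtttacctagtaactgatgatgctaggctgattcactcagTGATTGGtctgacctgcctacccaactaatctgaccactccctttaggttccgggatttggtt

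Lymph node and lymphocyte genes had the lowest medians of all lists. All 10 B cell, all 12 T cell and all 4 tested lymph node genes were lower, with median log2 fold changes of -7.81, -5.08 and -9.60 (-8.43 with the gene without reads at its bound). In HFD-fed wild type mice the median log2 fold changes were -5.57, -3.53 and -4.89. *Cd22*, which restrains the B cell receptor, read 114, 155 and 95.9 CPM in the ND-fed and 0.103, 0.515 and 0.223 CPM in the *Acod1*-/- libraries. *Cd4* and *Cd8a*, the coreceptors of T cells, read 43.8, 78.1 and 41.5 CPM in the ND-fed and 1.19, 1.96 and 0.371 CPM in the *Acod1*-/- libraries for *Cd4* and 59.7, 98.0 and 53.9 CPM in the ND-fed and 2.63, 2.89 and 0.198 CPM in the *Acod1*-/- libraries for *Cd8a*. *Trac*, the constant chain of the T cell receptor, read 32.2, 62.9 and 39.4 CPM in the ND-fed and 2.32, 1.06 and 2.20 CPM in the *Acod1*-/- libraries (log2 fold change -4.58 ± 0.51, adjusted p = 0.000197). The naive B cell genes *Fcer2a*, *Cxcr5* and *Tnfrsf13c* read 96.7, 134 and 85.3 CPM, 23.5, 38.6 and 27.7 CPM and 32.8, 46.4 and 32.6 CPM on ND, and no *Acod1*-/- library held more than 0.0965 CPM of any of them.

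Most collagen and matrix remodelling genes rose. Of 20 collagen genes, 13 were higher and 1 lower, with a median log2 fold change of 1.12. In HFD-fed wild type mice the median was 1.53 and 18 were higher. Dropping *Acod1*-/- library 3 reduced the 13 to 9 and the median to 0.65, while dropping *Acod1*-/- library 1 or 2 gave 16. Dropping ND library 1, 2 or 3 gave 15, 10 and 9. The collagens summed to 4133, 2879 and 2722 CPM in the ND-fed and 5980, 5543 and 10693 CPM in the *Acod1*-/- libraries. *Col1a1*, of the main fibrillar collagen, read 251, 172 and 148 CPM in the ND-fed and 589.7, 593 and 698 CPM in the *Acod1*-/- libraries. The 3 knockouts lay close together and above all ND-fed mice (log2 fold change 1.72 ± 0.25, adjusted p = 0.000868). *Col3a1* read 639, 533 and 423 CPM in the ND-fed and 1706, 1223 and 1913 CPM in the *Acod1*-/- libraries (log2 fold change 1.60 ± 0.28, adjusted p = 0.00201), and *Col6a3*, of the collagen that surrounds adipocytes, read 179, 101 and 77.8 CPM in the ND-fed and 279, 253 and 415 CPM in the *Acod1*-/- libraries (log2 fold change 1.41 ± 0.31, adjusted p = 0.00740). The lower gene was *Col6a5* (log2 fold change -4.21 ± 1.09, adjusted p = 0.0155). Of 24 matrix remodelling genes, 15 were higher, and 9 without *Acod1*-/- library 3 or ND library 2. *Loxl1*, a crosslinking enzyme, read 22.5, 18.3 and 16.8 CPM in the ND-fed and 68.4, 70.2 and 80.4 CPM in the *Acod1*-/- libraries (log2 fold change 1.93 ± 0.18, adjusted p = 9.56e-05). *Lox*, its better known relative, read 107, 65.2 and 72.6 CPM in the ND-fed and 159, 137 and 256 CPM in the *Acod1*-/- libraries (log2 fold change 1.17 ± 0.30, adjusted p = 0.0157). *Adamts2*, which trims procollagen, and *Serpinh1*, the collagen chaperone, rose by 1.46 and 1.17 on the log2 scale (adjusted p = 0.00196 and 0.00256). *Thbs1*, the gene of thrombospondin 1, was not called (log2 fold change 0.17, 95% interval -1.31 to 1.66).

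Of 14 adipose progenitor markers, 5 were higher and 3 lower, the lower share being near the 16.1% of all genes. *Cd34*, *Sema3c* and *Fap* rose by 1.21, 1.58 and 0.94 on the log2 scale (adjusted p = 0.00427, 0.0186 and 0.0201), and *Icam1*, which committed preadipocytes and leukocytes share, and *Dpp4*, of early progenitors, fell, with log2 fold changes of -1.54 and -1.48 (adjusted p = 0.00104 and 0.0281). *Dpp4* was not called when ND library 2 was left out (adjusted p = 0.101). *Pdgfra*, the general marker of these cells, had a 95% log2 interval of -0.18 to 1.05. Of 15 endothelial genes, 7 were higher, beside 19.2% of all genes tested. The count was 2 without ND library 2, 3 without ND library 3 and 4 without *Acod1*-/- library 2. With the number series as a term in the fit it was 2, and the median log2 fold change was 0.14 in place of 0.48. *Emcn* and *Ptprb* rose by 0.73 and 0.74 on the log2 scale (adjusted p = 0.00654 and 0.0292), and *Pecam1*, which encodes CD31, had a 95% interval of -0.49 to 0.32.

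Cholesterol synthesis genes rested on single libraries. Of 23 genes, 12 were higher and 1 lower, and *Acod1*-/- library 2 stood apart, with a list sum of 6243 CPM against 1098 and 1769 CPM in the others and 939.7 to 1531 CPM on ND. The higher count was 3 with ND library 2 left out and 4 with *Acod1*-/- library 2 or ND library 1 left out. *Sqle*, an early enzyme of the sterol part of the route, was not called (log2 fold change 0.89, 95% interval -0.09 to 1.86). *Sc5d* and *Ebp*, late enzymes of the route, rose in every fit that left out 1 library (1.21 and 0.71, adjusted p = 0.000904 and 0.00856). The high keratin reads were in the same library, and their part was not tested.

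Of 20 NRF2 antioxidant genes, 8 were higher and 1 lower, beside 19.2% and 16.1% of all genes tested. Itaconate is known to activate NRF2 in macrophages. *Gstm2*, a glutathione transferase, read 72.7, 59.4 and 62.3 CPM in the ND-fed and 156, 135 and 152 CPM in the *Acod1*-/- libraries (log2 fold change 1.19 ± 0.14, adjusted p = 0.000276). *Prdx6*, a peroxiredoxin, and *Gclm*, of glutathione synthesis, rose by 1.11 and 0.74 on the log2 scale (adjusted p = 0.000546 and 0.00115). The lower gene was *Slc7a11*, the cystine importer, at 4.44, 5.12 and 5.83 CPM in the ND-fed and 0.0774, 0.450 and 0.0989 CPM in the *Acod1*-/- libraries (log2 fold change -4.64 ± 0.91, adjusted p = 0.00398). *Nqo1* and *Hmox1*, the usual reporters of NRF2, were not called (95% intervals -0.25 to 1.07 and -1.95 to 0.54 on the log2 scale).

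The remaining lists are given beside the 19.2% of all genes called higher and the 16.1% called lower. Endoplasmic reticulum stress genes had 4 of 20 higher, a count that was 0 without ND library 2 or 3. Proliferation genes had 2 of 20 higher and 4 lower. *Mki67*, a marker of cycling cells, was not called (95% interval -0.32 to 1.49), and *Mcm2*, a replication licensing factor, fell by 1.07 on the log2 scale (adjusted p = 0.00343). Clock genes had 2 of 18 higher and 1 lower, *Per3* and *Arntl* leading with log2 fold changes of 1.65 and -2.54 (adjusted p = 0.0314 and 0.0463). *Per3* was not called when *Acod1*-/- library 1 or ND library 2 was left out (adjusted p = 0.118 and 0.115), and *Arntl* was not called when *Acod1*-/- library 1 or ND library 2 was left out (adjusted p = 0.122 and 0.107). Of 14 glucocorticoid response genes only *Zbtb16*, a zinc finger factor, was called, lower with a log2 fold change of -1.41 (adjusted p = 0.0356), and it was not called when *Acod1*-/- library 1 was left out (adjusted p = 0.112). Mast cell (6 tested), red blood cell (5) and epithelial (10) markers had 0 called by edgeR or DESeq2 and 0 at an unadjusted p under 0.05. Neutrophil markers had 1 of 5 higher (*S100a8*, log2 fold change 1.97) and 1 lower (*Ltf*), with a list median of -1.31. Schwann cell markers had 1 of 6 each way, and mesothelial markers 1 of 3 lower. Skeletal muscle markers had 2 of 13 lower, *Mb* and *Myh2*, and both calls were lost without ND library 1 or *Acod1*-/- library 3. Adipocyte markers had 4 of 10 higher, a count that was 0 without *Acod1*-/- library 1. List counts of 4 or fewer often changed when 1 library was left out.

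By the smallest adjusted p among genes with groups apart, the higher genes were *Hipk2*, *Gm45716*, *Fam20c*, *Pmepa1* and *Phlda3*. *Hipk2*, a nuclear kinase of stress responses, read 19.8, 17.0 and 18.9 CPM in the ND-fed and 92.3, 69.2 and 92.8 CPM in the *Acod1*-/- libraries (log2 fold change 2.19 ± 0.18, adjusted p = 6.71e-05). *Fam20c*, the kinase of secreted proteins, rose by 3.43 on the log2 scale, and *Pmepa1*, a feedback inhibitor of TGF-beta signalling, by 2.08 (adjusted p = 8.87e-05 and 9.34e-05). *Phlda3*, a p53 target that restrains AKT, rose by 1.96 on the log2 scale (adjusted p = 9.34e-05). The lower genes by the same rule included *Akna*, *Map4k1*, *Serpinb1a* and *Fmnl1*, known from leukocytes, with log2 fold changes of -3.86, -3.36, -3.28 and -2.79 (adjusted p = 4.10e-05, 5.11e-05, 5.11e-05 and 5.31e-05). By size of change, all 12 higher genes (among them *Ahsg*, *Mup20*, *Gc*, *Apob*, *Mat1a*, *Cps1*, *Pzp*, *Mug1*, *Uox*, *Ces1c* and *Ces3a*) are known from liver. The 12 lower genes by size hold *Glycam1*, *Fcer2a*, *Ccl21a*, *Cxcr5*, *Cd5*, *Cd22* and *Tnfrsf13c* of lymphoid tissue, and the slow muscle myosin *Myh7*, which read 88.2, 0.0194 and 2.77 CPM in the ND-fed and 0, 0 and 0 CPM in the *Acod1*-/- libraries, mostly in the library with the high muscle sum. *Cacna1i*, *Apol7c*, *Nsg2* and *Zfp831* complete them.

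Set directly against HFD-fed wild type iWAT in the same fit, the knockout differed in 1 gene that was higher and 1 that was lower, of which the higher one is named here, after its values were seen. *Slc2a3*, a glucose transporter of leukocytes and neurons, read 12.5, 8.78 and 13.8 CPM in the knockouts and 4.10, 3.22, 2.96, 2.74 and 5.23 CPM in HFD-fed wild type mice, higher by 1.68 ± 0.22 on the log2 scale (adjusted p = 0.0899), and 28.5, 34.3 and 34.4 CPM on ND. For *Slc2a3* the knockouts lay between the ND-fed and the HFD-fed wild type mice. A gene not called between these 3 and 5 libraries is not shown to be equal. At an unadjusted p under 0.05 by edgeR, 6 of 22 thermogenic genes were higher and 2 lower in the knockout. The share of all genes at that p was not worked out, so these counts have no baseline. The paper reports iWAT genes that HFD changed and *Acod1* loss rescued, from DESeq2 at the same threshold. DESeq2 was not run here for this contrast.

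Epididymal fat of the same 2 kinds of mice gave a test of whether the knockout's difference from ND-fed mice was different in the groin pad. It had 5 knockout and 4 ND-fed libraries, all labelled 16 weeks of diet, unlike the inguinal knockouts. The labels do not say whether both depots came from the same mice, and the fit treated all libraries as independent. In a fit of all 25 libraries, the difference between depots was called in 4.92% of 15034 genes on the higher and 7.06% on the lower side in iWAT. Collagens were called higher in iWAT for 7 of 20 members and lower for 1. Their median log2 fold change was -0.0040 in epididymal fat. *Col1a1* differed by 1.43 ± 0.47, adjusted p = 0.0640 and *Col18a1*, a basement membrane collagen, by 1.68 ± 0.47, adjusted p = 0.0299. Thermogenic genes were called lower in iWAT for 7 of 20 tested in both depots, *Dio2* by -5.37 ± 1.15, adjusted p = 0.00450, *Cox7a1*, a cytochrome oxidase subunit of muscle and brown fat, by -2.92 ± 0.63, adjusted p = 0.00476 and *Ucp1* by -7.74 ± 2.33, adjusted p = 0.0435. All 10 MHC class II, all 12 T cell and all 10 B cell genes were also lower in iWAT than in epididymal fat by this test, where the lymph node sum of the ND-fed inguinal pads stands beside them. Of 15 endothelial genes 4 were higher in iWAT, *Ptprb* by 1.30 ± 0.35, adjusted p = 0.0253. Lipid uptake differed for 3 of 14, the caveolins *Cav1* and *Cav2* and *Cd36*, *Cav1* by 0.75 ± 0.26, adjusted p = 0.0774. Adipokines and lipid-associated macrophage genes had 0 members called for a difference between depots (0 and 1 at an unadjusted p under 0.05), with median log2 fold changes of 0.67 and 0.75 in epididymal fat, which does not show that the depots acted alike.

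**Figure D4:**
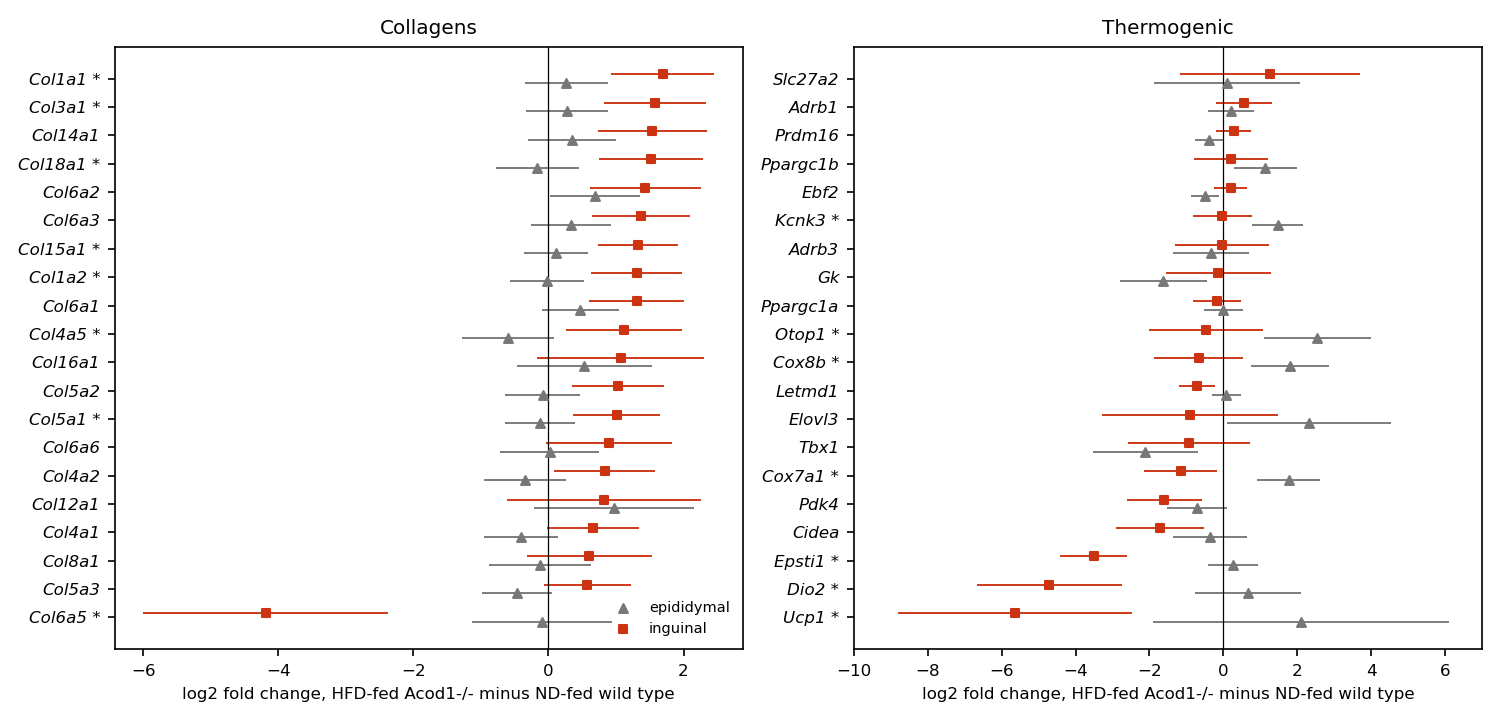
Log2 fold change of HFD-fed *Acod1*-/- minus ND-fed wild type mice with its 95% interval for 20 collagen and 20 thermogenic genes, squares for inguinal and triangles for epididymal fat, from 1 fit of all 25 libraries. A star marks genes whose difference between depots was called at an adjusted p under 0.1, 8 collagens and 7 thermogenic genes.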

How the data were processed

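RNA was taken from iWAT and epididymal fat of HFD-fed *Acod1*-/-, HFD-fed wild type and ND-fed wild type mice, 25 libraries in all. According to the study's methods, the authors made directional mRNA libraries, sequenced them on an Illumina NovaSeq, trimmed reads with cutadapt, removed contaminants and aligned with STAR to GRCm38 with GENCODE genes. The counting program and its strand setting are not given in the sources used here. The deposited tables hold raw counts of reads per gene, which were used, and FPKM values that the authors derived from them, which matched counts and transcript length within 0.0005 and were not used further. Rows that name no gene were left out; reads on no feature made up 7.25 to 11.9% of a library. The tables hold 54752 genes, of which 54723 have a GENCODE vM21 symbol.

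Counts of the 11 iWAT libraries (32.3 to 46.2 M reads on genes in the 6 compared) were TMM-scaled and fitted with edgeR 4.0.16 (R 4.3.3, limma 3.58.1) as 3 groups, with a quasi-likelihood test of *Acod1*-/- on HFD minus wild type on ND. Genes averaging at least 1 CPM across the 6 libraries were tested, p was adjusted by the Benjamini-Hochberg method and called under 0.1, the threshold of the study's own DESeq2 tests. Differences between depots came from 1 fit of all 25 libraries. A gene without a read in 1 group was given a bound from a floor of 3 counts per library, which covers counting error only. Replicates are mice. Alternatives, including DESeq2 1.42.0, changed 1 choice at a time, except that the replicate number as a block was also tried on the 6 libraries alone. Tables and figures used Python 3.11.15, numpy 2.4.6, pandas 2.3.3, scipy 1.17.1 and matplotlib 3.10.9.

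The members and the 45 gene lists were chosen with earlier results of these data known, and so were the alternatives; the 17 liver genes and the fits without ND library 1 and *Acod1*-/- library 2 were added after values were seen. Genes named are the 52 lead genes (51 tested), per direction the 12 called protein-coding genes with the largest change and the 5 with the smallest adjusted p among those with groups apart and a mean of at least 5 CPM, and for a list the called members with the smallest adjusted p, up to 4 per direction, with any member whose role is described. For length, some of these are given as counts only, and a few genes that the rule names are not reported here.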

Additional observations from a re-analysis of the deposited data

Results flagged for a closer look

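The difference between *Acod1*-/- on HFD and wild type on ND was tested between the depots in the fit of all 25 libraries, from which all values here come, and 6 lead genes were called. On the log2 scale the inguinal minus the epididymal change was 1.60 for *Npr3* (2.67 against 1.06, adjusted p = 0.0761), 0.68 for *Cd36* (0.54 against -0.14, adjusted p = 0.0751), 1.43 for *Col1a1* (1.69 against 0.26, adjusted p = 0.0640) and 1.30 for *Col3a1* (1.57 against 0.28, adjusted p = 0.0916). The uncoupling protein gene *Ucp1* differed by -7.74 (-5.64 against 2.09, adjusted p = 0.0435) and the deiodinase gene *Dio2* by -5.37 (-4.71 against 0.66, adjusted p = 0.00450). Their epididymal 95% intervals held both signs (-1.91 to 6.10 and -0.78 to 2.10), so a rise in epididymal fat was not shown. ND library 3 held most inguinal *Ucp1* reads, and its part was not tested in the depot fit.

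Among 55 sets of 5 values from the HFD-fed wild type iWAT libraries, 10 had a library far from the others by Dixon's test, where chance gives about 1 in 20. Library 4 stood apart for *Sfrp5* (316 CPM), *Ccl2* (34.0 CPM), *Col3a1* (2788 CPM) and *Pdgfra* (58.9 CPM). Library 5 stood apart for *Cd36* (5409 CPM), *Bcat2* (136 CPM), *Ppargc1a* (7.44 CPM) and the B cell marker sum (114 CPM). Library 2 stood apart for *Lpl* (21028 CPM), and library 1 for *Saa3* (54.8 CPM).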

How the results depend on the processing

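The counts of 2893 higher and 2418 lower genes, of 256 called among 675 list members and of 22 called among 51 lead genes stayed within 1.5-fold under DESeq2 (3062 higher and 2593 lower), its size factors, both filters, the stricter threshold, the number series as a term or the ND-fed mice's series alone, and without both libraries that stood apart. Single lists changed more with the series term. Higher members called went from 12 to 3 for cholesterol synthesis and from 15 to 8 for matrix remodelling. Lower ones went from 12 to 8 for T cell genes and from 7 to 11 for interferon-stimulated genes. With the 6 libraries alone, 1530 genes were higher and 1744 lower. Leaving out 1 library gave 1843 to 2810 higher genes, fewest without ND library 2, and 1684 to 2510 lower genes. Residuals of same-numbered mice correlated at 0.251, -0.09 and -0.327, and those of unlike-numbered mice at -0.292 to 0.472. These few values show no pairing by replicate number, but they cannot settle whether there was any. With the replicate number as a block, 2258 were higher and 2077 lower over 11 libraries, and 1010, 1409 and 155 (higher, lower and list members) over the 6 alone. The depot difference was called for 1800 genes, for 1139 at an adjusted p under 0.05, and for 746 higher and 1052 lower with the series term. Of 4674 values of 215 named genes, 4177 kept their call, 460 lost it and 34 gained it. *Mb* and *Myh2* changed to 0.18 and 0.39 without ND library 1 and *Acod1*-/- library 2, and *mt-Co2* to -0.18 in the ND-fed mice's number series (log2 scale). The causes were not tested. Genes near 1 CPM rest on few reads, and 21.1% of genes had a 95% interval within 1.5-fold either way.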
